A study of Homo sapiens with 40 samples.

Results

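The response to TGFβ was measured in MII-spheres, 3D cultures of HRAS-transformed MCF-10A cells, by comparing 3 stimulated libraries (MII-TGFb) with 3 unstimulated ones (MII-Ctrl) over all genes. These 6 RNA-seq libraries were chosen by their labels out of 40 samples in the series. MCF-10A, labelled MI, is an immortalized human breast epithelial line, and MII is its derivative carrying HRAS, labelled MCF-10A-HRAS with the genotype WT. Both lines grew as spheres in ultra-low attachment plates, so that all groups share this culture, and TGFβ1 was given at 2.5 ng/ml for 16 h or left out. The 6 libraries carry 1 batch label and are named biological replicates 1 to 3. Whether the replicates came from separate cultures is not stated beyond this name, so p-values measure the spread between these libraries. MII is a single engineered line, and its values describe that line.

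TGFβ binds a pair of receptor kinases that phosphorylate SMAD2 and SMAD3, which join SMAD4 and act on genes together with other transcription factors. In normal breast epithelium the pathway restrains growth and adjusts cell adhesion and the extracellular matrix. Oncogenic RAS drives the ERK kinases, which act on many of the same genes, including those of the AP-1 and EGR families. The lists below therefore follow the pathway from its targets in differentiation and matrix to its signalling genes and to the genes that fell.

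Each library held 14124688 to 27759376 counts on genes, 14124688 to 27759376 in MII-Ctrl and 15370453 to 15587660 in MII-TGFb. Of 60708 genes counted, 16396 had enough counts to be tested. Levels are given as CPM, the count of a gene relative to the composition-scaled library total, and each difference as a log2 fold-change of MII-TGFb against MII-Ctrl with its standard error (SE) and an adjusted p from edgeR. DEGs had an adjusted p under 0.05 and an absolute log2 fold-change above 1. HRAS, at 231 to 240 CPM of the unscaled library total in MII-Ctrl and 39.6 to 41.6 in unstimulated MI-spheres, fitted the labels of the lines. Summed over 10 breast epithelial markers, MII-Ctrl libraries stood at 3870 to 3920 CPM and MII-TGFb libraries at 5720 to 5980, with no marker at 0. Of 8 fibroblast markers 7 had too few counts to be tested and COL1A1 alone was tested, and the list summed to 9.25 to 11.3 CPM in MII-Ctrl and 4.28 to 5.41 in MII-TGFb. Of 8 leukocyte and endothelial markers, PECAM1 and CDH5 were tested, and the list summed to a median of 119.5 and at most 120.93 CPM in MII-Ctrl and 97.9 to 109.05 CPM in MII-TGFb. In bulk RNA, fewer cells expressing a gene and less RNA of it per cell cannot be told apart.

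Of the genes tested, 9438 (57.6%) passed the adjusted p. Of these, 4906 (29.9% of genes tested) were higher and 4532 (27.6%) lower, and 511 (3.12%) and 1230 (7.50%) of the genes tested were DEGs higher and lower. The CPM of the groups did not overlap for 10065 genes (61.4%). A count of list members is read against these shares. Scaled by library totals alone, the median log2 fold-change of all genes moved from -0.018 to -0.150, and 3193 genes were higher and 6407 lower past the adjusted p, so that higher genes made up 33.3% of those calls in place of 52.0%. The differences below are relative to the first scaling.

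Promoter sequence is shown for 4 genes that carry the largest changes of their groups, namely the immediate-early factor EGR1, the protease MMP10 and the paired collagen genes COL4A1 and COL4A2. The sequences are from RefSeq (GRCh38.p14) and are written 5′ to 3′ on the strand of the gene, up to the base before the annotated start site. For EGR1, at chr5:138465229-138465478 on the plus strand, capitals mark the 2 serum response factor (SRF) CArG boxes, the nearer of which begins 83 bases before the start. For MMP10, at chr11:102780629-102780878 on the minus strand, capitals mark the single AP-1 match, 67 bases before the start. COL4A1 and COL4A2 are read in opposite directions from 1 short stretch, of which 100 bases lying outside the annotated exons of both, at chr13:110307158-110307257, are given on the plus strand. There, 78.0% of the bases are G or C, and capitals mark the single match of the GC-rich SMAD string GGCGCG.
EGR1: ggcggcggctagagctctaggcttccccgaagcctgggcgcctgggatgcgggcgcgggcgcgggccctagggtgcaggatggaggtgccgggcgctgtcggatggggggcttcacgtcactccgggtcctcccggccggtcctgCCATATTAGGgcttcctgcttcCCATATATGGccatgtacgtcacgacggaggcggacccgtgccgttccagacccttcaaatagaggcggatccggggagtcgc
MMP10: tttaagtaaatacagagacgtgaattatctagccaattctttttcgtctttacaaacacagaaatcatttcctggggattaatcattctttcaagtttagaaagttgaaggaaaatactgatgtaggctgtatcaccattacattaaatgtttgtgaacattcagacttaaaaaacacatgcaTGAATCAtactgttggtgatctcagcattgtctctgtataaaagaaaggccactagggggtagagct
COL4A1 and COL4A2: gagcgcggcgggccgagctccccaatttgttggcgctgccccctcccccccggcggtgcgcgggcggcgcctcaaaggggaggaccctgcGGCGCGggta

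Keratins of basal and stratified epithelium rose together in stimulated MII-spheres, with KRT5 10.4-fold and KRT17 3.67-fold higher, while among simple-epithelial keratins KRT8 and KRT19 rose by 0.39 and 0.66 in log2 fold-change and KRT18 did not pass the test. Of 22 keratin genes tested, 12 were higher and 5 lower past the adjusted p, 7 of them DEGs higher and 1 a DEG lower, and the median was 0.24. KRT5, the basal keratin on chromosome 12 (52514575 to 52520530, GRCh38), was at 18.9, 18.6 and 20.7 CPM in MII-Ctrl and 205, 194 and 206 CPM in MII-TGFb (log2 fold-change 3.38, SE 0.054, edgeR adjusted p = 1.14e-45). The groups lie far apart, and the replicates of each differ by little.

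KRT17, a keratin of basal and wound-edge cells, was at 342, 336 and 339 CPM in MII-Ctrl and 1281, 1174 and 1277 CPM in MII-TGFb (1.88, SE 0.036). KRT14, the partner of KRT5, was at 9.42, 7.75 and 8.80 CPM against 19.7, 26.2 and 27.4 CPM (1.52, SE 0.11). KRT6A, induced in activated epidermis, went from 1.84, 1.95 and 1.60 CPM to 35.5, 32.4 and 31.5 CPM (4.18, SE 0.12), and KRT6B from 143, 154 and 129.2 CPM to 686, 671 and 735 CPM (2.29, SE 0.043). KRT6A, KRT6B and KRT6C are near-identical copies, and how reads divide among them is uncertain. KRT16, the usual partner of the KRT6 proteins, rose by 1.30 (SE 0.042).

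KRT8 and KRT18, the keratins of simple and luminal epithelium, had log2 fold-changes of 0.39 (SE 0.033) and 0.072 (SE 0.033, edgeR adjusted p = 0.0561). KRT15, a basal keratin that was abundant without TGFβ, rose by 0.12 (SE 0.032), and KRT23 fell by 0.68. Per kilobase of exon, the KRT5 level went from 4.69 to 48.8 CPM and the KRT8 level from 204 to 267 CPM. Thus KRT8 stayed the more abundant of both by length. TP63, the basal lineage factor, was at 0.751, 0.480 and 0.685 CPM in MII-Ctrl and 2.84, 2.41 and 2.74 CPM in MII-TGFb, a log2 fold-change of 2.11 (SE 0.31) on few counts.

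Beyond keratins, the list of squamous differentiation genes held 29 tested members, of which 16 were higher and 4 lower past the adjusted p, with 9 DEGs higher, 0 DEGs lower and a median of 0.32. SERPINB3 and SERPINB4, protease inhibitors of squamous epithelium with near-identical sequences, rose by 1.18 (SE 0.038) and 1.61 (SE 0.07). SERPINB4 was at 15.8, 15.5 and 15.9 CPM against 47.1, 48.6 and 48.1 CPM. SPRR1B, a precursor of the cornified envelope, was at 0.956, 0.788 and 1.26 CPM against 2.30, 2.34 and 2.74 CPM (1.33, SE 0.29).

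Other genes of the cornified envelope did not move together. TGM1, the cross-linking enzyme, had -0.52 and did not pass, SPRR3 fell by 0.32, and FLG and LORICRIN had too few counts to be tested. The S100 gene S100A7 had -0.78 on 51 counts in MII-Ctrl and 21 in MII-TGFb and did not pass the adjusted p. Involucrin (IVL), at 11.3, 10.6 and 10.7 CPM against 14.5, 20.3 and 19 CPM, rose by 0.73. Of 8 genes of the SERPINB family tested, 7 were higher and 0 lower, SERPINB7 most of all with 2.68 (SE 0.34). SERPINB1 and SERPINB6, among those that rose, lie on chromosome 6 and the others on chromosome 18.

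Calcium-binding S100 genes had 10 of 15 tested members higher and 2 lower, with a median of 0.38. S100A2, a keratinocyte S100 protein, was at 63.7, 61.8 and 56.8 CPM in MII-Ctrl and 355, 332 and 357 CPM in MII-TGFb, 5.73-fold higher (2.52, SE 0.044, edgeR adjusted p = 6.99e-44). S100A10, which pairs with annexin A2, was at 76.0, 79.9 and 75.6 CPM against 200, 198 and 198 CPM. In both, the libraries of 1 group lie within a narrow range and clear of the other group.

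Desmosomes, the spot junctions anchored to keratin filaments, changed in the same direction as the keratins. All 5 desmosomal cadherins tested were higher past the adjusted p, 3 of them DEGs, with a median of 1.08. DSG3, a desmosomal cadherin of stratified epithelium, was at 61.7, 58.8 and 59.8 CPM against 199, 197 and 184 CPM (1.69, SE 0.045), and DSC2 at 325, 320 and 336 CPM against 685, 703 and 681 CPM (1.08, SE 0.034). DSP, the desmosomal plaque protein, rose by 0.88 (SE 0.035). Over the whole list of tight junction and desmosome genes, 12 of 20 tested were higher and 4 lower. The lower ones included the tight junction scaffolds PATJ (-0.33), TJP3 (-0.26) and TJP1 (-0.14).

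Epithelial identity genes moved in both directions, 8 of 26 higher and 9 lower, with 0 DEGs and a median of -0.01. CDH1 (E-cadherin), at 606, 569 and 570 CPM against 726, 728 and 701 CPM, rose by 0.30 (SE 0.034), and CDH3 (P-cadherin), the cadherin of basal cells, rose by 0.94 (SE 0.038). The surface glycoprotein EPCAM rose by 0.63. The transcription factors OVOL1 (-0.76), KLF4 (-0.70) and GRHL3 (-0.68), which promote epithelial differentiation, fell, and the splicing regulator ESRP1 and the factor GRHL2 had values of 0.0014 and -0.051 that did not pass. By library totals alone, 14 members of this list were lower and 7 higher.

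Genes of luminal and secretory cells split as well, 10 of 23 tested higher and 8 lower, with 3 DEGs higher and 2 lower, and by library totals 8 were higher and 12 lower. AGR2, a disulfide isomerase of secretory cells, was at 50.2, 44 and 44.9 CPM against 145, 138 and 139 CPM (1.61, SE 0.051). PROM1, a protein of membrane protrusions also called CD133, was at 2.18, 2.16 and 2.23 CPM against 6.22, 5.69 and 4.99 CPM (1.36, SE 0.19). ALDH1A1, an aldehyde dehydrogenase, was at 0.273, 1.06 and 1.09 CPM against 2.43, 2.48 and 3.08 CPM (1.62, SE 0.30).

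MUC16, a membrane mucin, fell from 205, 224 and 203 CPM to 67.2, 68.8 and 71.5 CPM (-1.61, SE 0.046). ALDH3A1 fell from 32.9, 33.3 and 32.0 CPM to 15.6, 14 and 14 CPM. LCN2, an iron-carrier binding protein among the most abundant mRNAs here, was at 1338, 1351 and 1366 CPM against 1316, 1333 and 1339 CPM and did not pass (-0.024, edgeR adjusted p = 0.528).

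Among 26 tested mammary lineage factors, 8 were higher and 6 lower, with a median of -0.03, and by library totals 4 were higher and 11 lower, with a median of -0.16. GATA3, the luminal lineage factor, fell by 0.43 (SE 0.071), while the luminal factor FOXA1 (0.008) did not pass. PGR, the progesterone receptor, was near 0 in MII-Ctrl with 3 counts in all and at 1.01, 1.67 and 1.37 CPM in MII-TGFb. SOX4, at 400, 391 and 382 CPM against 393, 389 and 400 CPM, had overlapping groups and a log2 fold-change of 0.013 (SE 0.035, edgeR adjusted p = 0.755). By library totals SOX4 was called lower, with -0.12 (edgeR adjusted p = 0.00252).

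**Figure D1:**
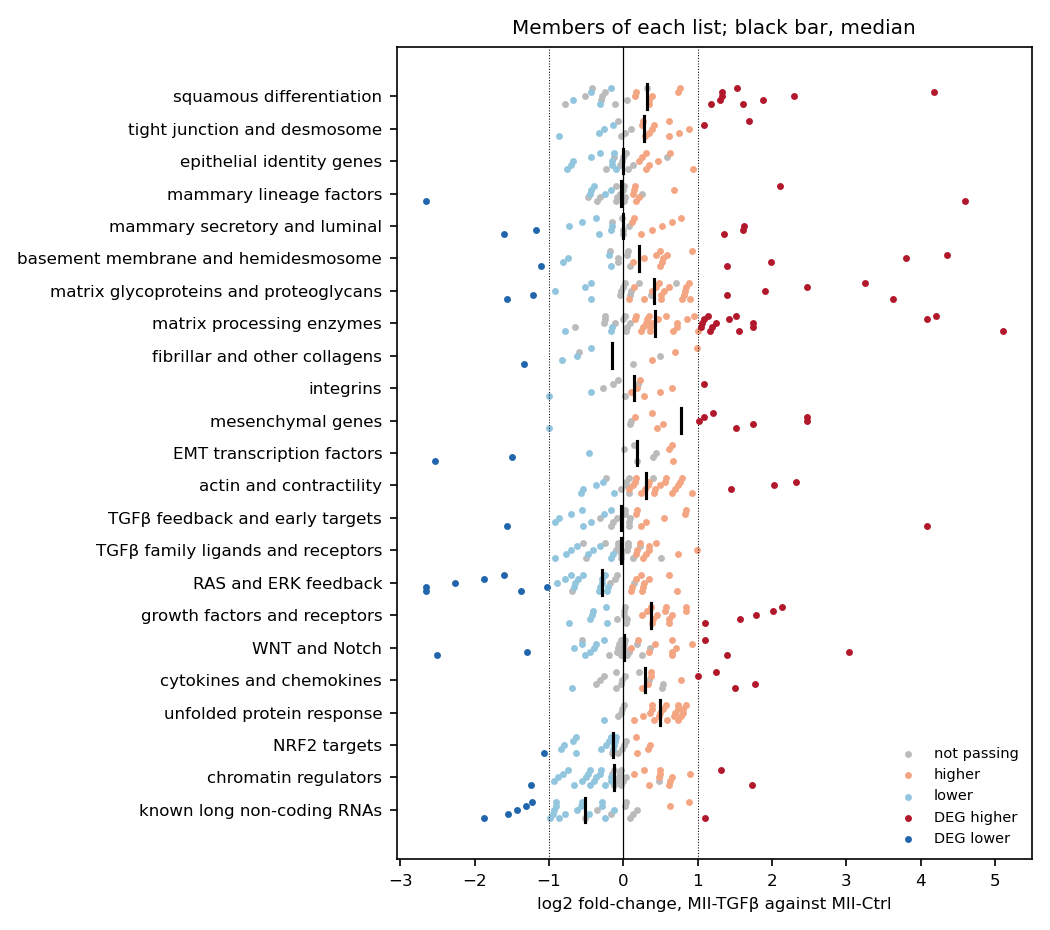
Each point is a tested member of 1 of 23 gene lists, placed by its log2 fold-change in MII-spheres, with the call in colour, the median as a black bar and dotted lines at 1 and -1. Matrix processing enzymes, mesenchymal genes and unfolded protein response genes lie mostly to the right, and RAS and ERK feedback genes and known long non-coding RNAs mostly to the left.

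Basement membrane genes moved in both directions. Of 24 tested, 13 were higher and 5 lower, with 4 DEGs higher, 1 lower and a median of 0.21. The DEGs higher included both major collagen IV chains and LAMA3, and the DEG lower was LAMA5. COL4A1, whose start lies beside the stretch printed above, was at 1.16, 1.89 and 1.77 CPM in MII-Ctrl and 33.1, 34.8 and 35.0 CPM in MII-TGFb, 20.4-fold higher (4.35, SE 0.12, edgeR adjusted p = 1.57e-34). COL4A2, read in the opposite direction, was at 4.44, 2.85 and 2.86 CPM against 42.8, 45.6 and 47.8 CPM (3.80, SE 0.11). Their proteins assemble into 1 triple helix, and per kilobase of exon both genes reached a like level of 2.34 and 2.36 CPM. The other collagen IV genes stayed lower in change, with COL4A6 at 0.53 and COL4A5 at -0.17.

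LAMA3 and LAMB3, chains of the laminin of hemidesmosomes, rose. LAMA3 was at 71.2, 72.7 and 76.6 CPM in MII-Ctrl and 194, 193 and 191 CPM in MII-TGFb (1.39, SE 0.043, edgeR adjusted p = 1.49e-32), and LAMB3 rose by 0.50 (SE 0.036). LAMA5, a broadly expressed laminin chain, fell from 287, 328 and 288 CPM to 143, 133 and 143 CPM (-1.11, SE 0.043), and the heparan sulfate proteoglycan HSPG2 (perlecan) fell by 0.81. The hemidesmosomal integrin ITGB4 had -0.070 and did not pass, while its partner ITGA6 rose by 0.49 and COL17A1 by 0.59. By library totals 11 members of the list were higher and 8 lower.

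Collagens as a family were balanced, with 8 of 21 tested genes higher, 8 lower and a median of -0.17. COL1A1, the fibrillar collagen of connective tissue, fell from 10.7, 10.5 and 9.08 CPM to 4.87, 3.75 and 3.49 CPM (-1.33, SE 0.15), and COL1A2 and COL3A1 had too few counts to be tested. COL8A1 (0.99) and COL18A1 (0.69) rose.

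Collagen-modifying enzymes rose together. The list of matrix processing enzymes and inhibitors had 33 of 46 tested members higher and 3 lower past the adjusted p, 15 DEGs higher, 0 lower and a median of 0.42. P4HA1, which hydroxylates collagen prolines, was at 98.0, 92.9 and 94.0 CPM against 275, 278 and 279 CPM (1.55, SE 0.04). The lysyl hydroxylases PLOD1 (1.06), PLOD2 (1.05) and PLOD3 (0.72) rose, as did the collagen chaperone SERPINH1 (0.36) and the cross-linking oxidases LOXL2 (1.51) and LOX (0.38). PCOLCE2, an enhancer of procollagen processing, was at 0.410, 0.617 and 1.20 CPM against 2.84, 2.48 and 2.12 CPM (1.74, SE 0.31).

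PLAU, the urokinase that activates plasminogen, rose from 8.74, 11.9 and 9.77 CPM to 21.5, 24.7 and 28.0 CPM (1.25, SE 0.1).

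Of 14 matrix metalloproteinase genes tested, 7 were higher and 2 lower, with a median of 0.28. MMP10 (stromelysin-2), whose promoter with its AP-1 match is printed above, was at 0.410, 0.171 and 0.171 CPM in MII-Ctrl and 8.18, 8.63 and 7.59 CPM in MII-TGFb, 34.5-fold higher (5.11, SE 0.28). MMP1, the interstitial collagenase in the same cluster on chromosome 11, was at 0.410, 0.206 and 0 CPM against 2.97, 3.34 and 4.92 CPM (4.21, SE 0.39). Control levels of both rest on 14 and 12 counts. MMP2, a gelatinase, was at 5.05, 6.96 and 5.54 CPM against 18.2, 19.1 and 23.4 CPM (1.75, SE 0.12). MMP13 was at 32.9, 29.4 and 33.0 CPM against 70.4, 68.7 and 69.1 CPM (1.14, SE 0.061), and MMP3 and MMP9 had too few counts to be tested.

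Matrix glycoproteins had 21 of 36 tested members higher and 6 lower, with 5 DEGs higher, 2 lower and a median of 0.41. TNC (tenascin-C), a glycoprotein of remodelled stroma, was at 28.7, 34.9 and 28.3 CPM against 173, 171 and 172 CPM (2.47, SE 0.056). HAS2, a hyaluronan synthase, was at 0.0683, 0.0686 and 0.286 CPM (8 counts) against 1.55, 1.81 and 1.78 CPM, while HAS3, of the same function, fell by 1.21 (SE 0.2). IGFBP5, which binds insulin-like growth factors and matrix, was at 1.71, 3.02 and 2.68 CPM against 22.9, 28.7 and 22.6 CPM (3.25, SE 0.13). The proteoglycan VCAN was at 0.751, 0.857 and 1.31 CPM against 3.51, 3.41 and 4.04 CPM (1.91, SE 0.26).

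FN1 (fibronectin), often used as a TGFβ-induced matrix gene, had overlapping groups, at 142, 136 and 135 CPM in MII-Ctrl and 143, 156 and 141 CPM in MII-TGFb (0.093, SE 0.043, edgeR adjusted p = 0.061). FN1 passed the adjusted p with DESeq2 (0.13), with a gene-length trend removed (0.15), with no low-count filter (0.13) and without MII-Ctrl replicate 1 (0.12), MII-TGFb replicate 1 (0.12) or MII-TGFb replicate 3 (0.13), and its value was -0.04 by library totals. CCN1 and CCN2, matricellular proteins that TGFβ and YAP can induce, fell by 1.56 (SE 0.12) and 0.92 (SE 0.12), CCN1 from 19.8, 17.6 and 18.9 CPM to 6.08, 5.02 and 7.93 CPM. TGFBI, a matrix protein named for its induction by TGFβ, rose by 0.84 (SE 0.036).

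Mesenchymal genes rose for the most part, 11 of 14 tested being higher and 1 lower, with 7 DEGs higher and a median of 0.78. VIM (vimentin) was at 2.94, 2.85 and 2.68 CPM against 6.56, 6.89 and 10.7 CPM (1.51, SE 0.18), and CDH2 (N-cadherin) at 3.62, 5.45 and 3.88 CPM against 10.7, 11.4 and 9.03 CPM (1.21, SE 0.15). FAP, a serine protease of activated fibroblasts, was at 0.478, 0.686 and 0.743 CPM against 3.31, 4.15 and 3.42 CPM. These levels stayed low beside the epithelial ones. Per kilobase of exon, CDH1 was at 118 CPM in MII-TGFb. ITGA5, the fibronectin receptor chain, rose by 1.09 (SE 0.077), and ITGB3 fell by 1.0 (SE 0.048) from 129.2, 126 and 127 CPM to 61.7, 62.2 and 67.4 CPM. The fibroblast markers summed to a lower level in MII-TGFb, as given above. Their part in these results was not tested.

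The transcription factors known for driving epithelial-mesenchymal transition did not rise as a group, with 3 of 11 tested higher, 3 lower, 0 DEGs higher and 2 DEGs lower. SNAI1 (Snail) fell from 23.9, 21.1 and 16.8 CPM to 4.06, 3.34 and 3.28 CPM, 5.76-fold (-2.53, SE 0.13, edgeR adjusted p = 1.12e-22). SNAI2 (Slug), at 1.78, 1.37 and 1.60 CPM against 1.62, 1.87 and 2.67 CPM, overlapped between groups (0.40, SE 0.27, edgeR adjusted p = 0.207). ZEB1 (0.15) and ZEB2 (0.44) did not pass, and RUNX2 fell by 1.5 (SE 0.37). HMGA2, a chromatin protein, rose by 0.65 and ETS1 by 0.67.

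Actin and contractility genes had 22 of 34 tested members higher and 5 lower, with a median of 0.31. ANLN (anillin) was at 18, 16.2 and 17.4 CPM against 68.5, 67.8 and 72.8 CPM (2.03, SE 0.066), and DIAPH3, a formin, at 0.410, 0.651 and 0.857 CPM against 2.57, 4.01 and 3.21 CPM (2.32, SE 0.30). Both also serve cytokinesis. ACTB (0.92), CNN3 (0.79), CALD1 (0.76) and TPM1 (0.57) rose, while ACTA2, the smooth muscle actin, had 0.038 (edgeR adjusted p = 0.896). FLNA, at 3.69, 5.31 and 4.57 CPM against 2.03, 4.68 and 31.7 CPM, was decided by MII-TGFb replicate 3, since its log2 fold-change of 1.45 became -0.45 without that library and no longer passed.

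**Figure D2:**
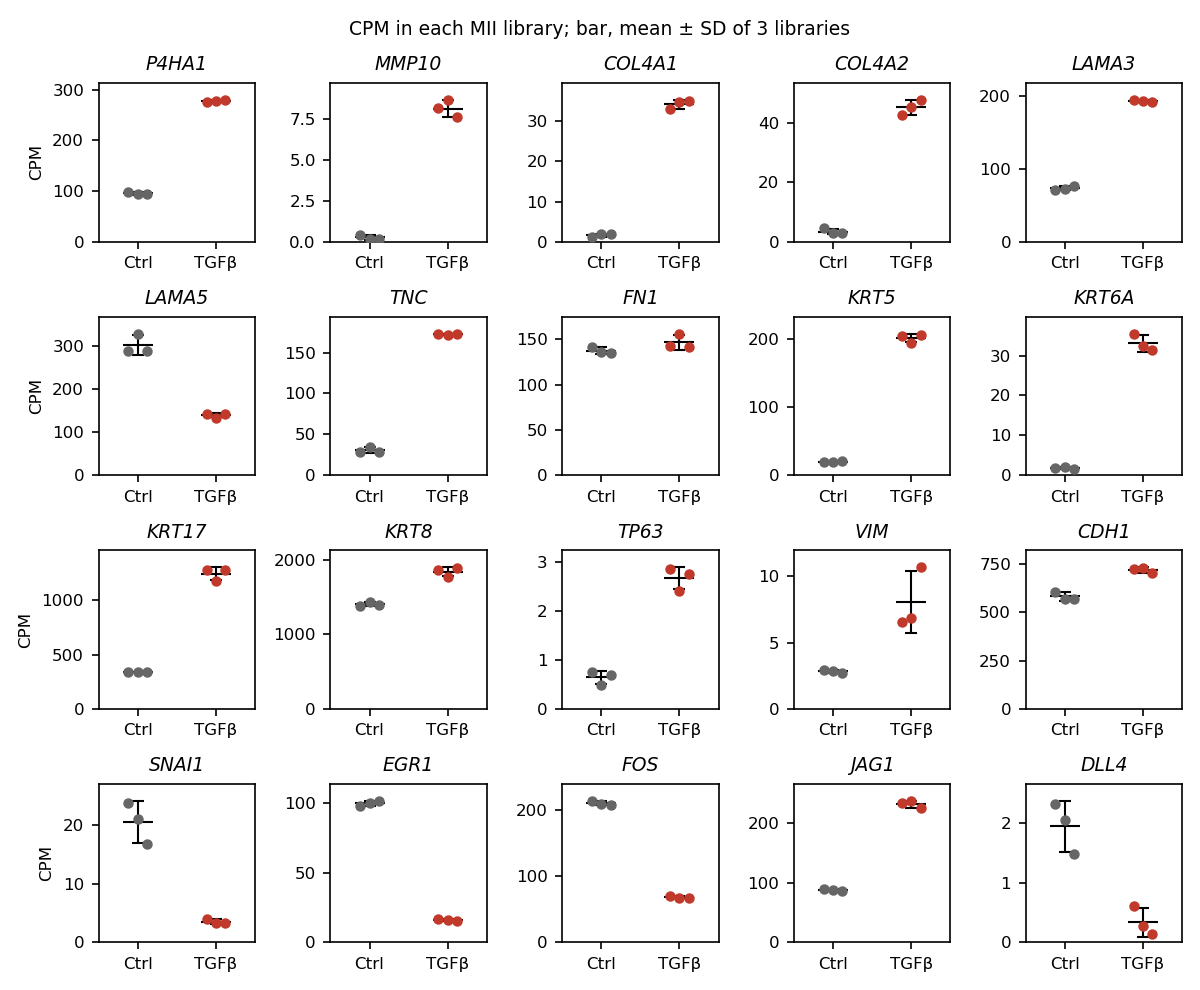
CPM of 20 genes in each of the 3 MII-Ctrl (grey) and 3 MII-TGFb (red) libraries, each panel on its own axis from 0, with the mean and SD as black bars. Libraries of 1 group lie close together, FN1 overlaps between groups, and LAMA5, SNAI1, EGR1, FOS and DLL4 are lower in all 3 MII-TGFb libraries.

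The TGFβ pathway's own genes changed little in level. Of 33 tested ligand, receptor and SMAD genes, 10 were higher and 9 lower, with 0 DEGs and a median of -0.02. By library totals 14 were lower and 8 higher. The ligands TGFB1 (-0.25, edgeR adjusted p = 0.195) and TGFB3 (-0.071, edgeR adjusted p = 0.632) did not pass, and TGFB2 passed narrowly with -0.14 (edgeR adjusted p = 0.0137). The call for TGFB2 was lost without MII-TGFb replicate 1 (edgeR adjusted p = 0.105), with all 12 sphere libraries in 1 edgeR fit (adjusted p = 0.123), with no low-count filter (edgeR adjusted p = 0.126) and with DESeq2 (adjusted p = 0.155). By library totals TGFB1 passed, with -0.39 (edgeR adjusted p = 0.0448).

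The receptors rose by the same amount, TGFBR1 from 70.7, 64.9 and 71.2 CPM to 92.4, 82.3 and 85.5 CPM (0.34, SE 0.053) and TGFBR2 from 158, 163 and 157 CPM to 197, 205 and 203 CPM (0.34, SE 0.039). SMAD3, the transducer that binds DNA, fell from 175, 191 and 181 CPM to 104.8, 111.05 and 106.3 CPM (-0.77, SE 0.043), while SMAD2 (-0.07) and SMAD4 (-0.1) did not pass. The co-receptor ENG fell by 0.71 and the latency protein LTBP4 by 0.92. FSTL3, a secreted antagonist of activin, was at 14, 16.0 and 16.8 CPM against 31.6, 30.1 and 31.5 CPM (0.99, SE 0.079). GDF15, a stress-induced member of the family, fell from 468, 496 and 460 CPM to 313, 288 and 328 CPM (-0.62, SE 0.039).

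Feedback and early target genes of the pathway were mixed, 8 of 26 tested higher and 9 lower, with a median of -0.03, and by library totals 13 were lower and 6 higher. SMAD7, the inhibitory SMAD that is a usual direct target, overlapped between groups at 9.15, 9.74 and 11 CPM against 9.46, 8.43 and 9.23 CPM (-0.14, SE 0.12, edgeR adjusted p = 0.315), and by library totals it was called lower, with -0.27 (edgeR adjusted p = 0.0455). SKIL (0.081) and SMURF2 (0.082), negative regulators, did not pass either. PMEPA1, another inhibitor of the pathway, rose by 0.24 (SE 0.035), and KLF10 by 0.55. Of the 4 ID genes, targets of BMP signalling that inhibit differentiation factors, 3 fell and 0 rose, ID3 from 71.7, 72.8 and 67.8 CPM to 40.3, 37.9 and 38.2 CPM (-0.87, SE 0.059).

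Immediate-early genes fell broadly. These genes, which SRF and the ERK kinases switch on within minutes of a stimulus, were grouped after their values were seen. Of 28 tested, 23 were lower and 1 higher past the adjusted p, 12 were DEGs lower, and the median was -0.75. EGR1, a zinc finger factor with the CArG boxes printed above, was at 98.0, 100.4 and 101.3 CPM in MII-Ctrl and 16.5, 15.9 and 15.1 CPM in MII-TGFb, a 6.32-fold fall (-2.66, SE 0.064, edgeR adjusted p = 1.34e-37). EGR2 and EGR3 fell by 1.88 (SE 0.31) and 2.65 (SE 0.33) at levels of a few CPM.

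FOS, a subunit of AP-1, fell from 213, 209 and 207 CPM to 70.4, 67.4 and 67.7 CPM (-1.61, SE 0.044), FOSB from 88.1, 79.2 and 75.6 CPM to 15.3, 16.5 and 18.7 CPM (-2.26, SE 0.071) and JUN from 105.7, 107.2 and 113 CPM to 56.5, 49.0 and 55.4 CPM (-1.02, SE 0.053). ZFP36, which marks cytokine mRNAs for decay, fell by 1.64 (SE 0.065), NR4A1, an orphan nuclear receptor, by 2.07 (SE 0.25) and MYC by 0.26 (SE 0.055). KLF10 was the gene that rose. FOSL2, IER3, NR4A2 and SRF did not pass.

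RAS and ERK feedback genes, a list that shares the EGR and AP-1 genes with the one above, had 21 of 36 members lower and 10 higher, with 7 DEGs lower, 0 higher and a median of -0.28. DUSP1, a phosphatase of MAP kinases that is itself immediate-early, fell from 84.0, 88.9 and 82.1 CPM to 31.1, 35.2 and 32.5 CPM (-1.37, SE 0.06). Other members of the list moved in both directions. DUSP6, an ERK phosphatase, rose by 0.25 (SE 0.057), SPRED1 by 0.24, ETV5 by 0.61 and ETV1 by 0.72, SPRY2 did not pass (0.15), and SPRY4 fell by 0.33, DUSP5 by 0.66 and ETV4 by 0.61. HRAS fell by 0.22 (SE 0.038), from 222, 228 and 229 CPM to 193, 191 and 201 CPM, and NRAS rose by 0.35. RASD1, a RAS-related GTPase, had the lowest log2 fold-change among the genes named here, from 13.8, 16.4 and 12.5 CPM to 1.69, 1.14 and 1.5 CPM (-3.31, SE 0.17).

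GADD45B and GADD45G, small growth-arrest proteins, fell from 94.3, 97.4 and 94.4 CPM to 19.3, 20.3 and 20.8 CPM (-2.25, SE 0.062) and from 49.0, 51.6 and 46.3 CPM to 8.79, 7.76 and 7.04 CPM (-2.64, SE 0.085). PMAIP1 (NOXA), a promoter of apoptosis, fell by 1.47 and the kinase PLK3 by 1.20. GADD45B, PMAIP1 and PLK3 belong to a list of 30 p53 targets with a median of 0.00, in which 9 were higher and 8 lower past the adjusted p, and 4 and 15 by library totals. CDKN1A (p21), at 558, 566 and 547 CPM against 650, 612 and 642 CPM, rose by 0.19 (SE 0.034), a rise that did not pass by library totals.

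Growth factor and receptor genes had 18 of 30 tested members higher and 6 lower, with 5 DEGs higher, 0 lower and a median of 0.38. PTHLH, the parathyroid hormone-related peptide, was at 7.37, 7.20 and 6.45 CPM against 33.9, 29.8 and 29.2 CPM (2.14, SE 0.1), and PDGFB at 6.14, 5.69 and 5.83 CPM against 17.1, 17.0 and 18.1 CPM (1.57, SE 0.11). FGF1 was at 1.84, 1.61 and 1.71 CPM against 5.88, 6.89 and 7.93 CPM (2.01, SE 0.19). SEMA7A, a membrane-anchored semaphorin, rose by 1.79 and NRP1, a semaphorin receptor, by 0.84, while FGFR2 fell by 0.73.

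Of the 15 EGF family genes tested, 6 were higher and 5 lower, with a median of 0.08 that became -0.05 by library totals. The ligand EPGN was at 12, 11.1 and 11.5 CPM against 24.3, 22.7 and 21.8 CPM (1.0, SE 0.09), and HBEGF fell from 65.2, 69.3 and 64.1 CPM to 37.0, 36.4 and 35.4 CPM (-0.87, SE 0.06). EGFR did not pass (0.089), and ERBB3 fell by 0.55.

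In the Notch pathway, in which neighbouring cells signal by membrane ligands, the ligands moved in opposite directions. JAG1 was at 89.8, 87.4 and 85.9 CPM against 232, 236 and 225 CPM (1.40, SE 0.041) and JAG2 rose by 0.66, while DLL4 fell from 2.32, 2.06 and 1.49 CPM to 0.608, 0.268 and 0.137 CPM (-2.51, SE 0.4). NRARP, a Notch target and inhibitor, fell from 10.5, 11.9 and 10.4 CPM to 3.85, 4.28 and 5.27 CPM (-1.30, SE 0.14), and HES1, another target, by 0.26 (SE 0.043). WNT7A, at 0.137, 0.274 and 0.343 CPM against 2.70, 2.01 and 1.85 CPM, and WNT9A rose, the second by 1.10. Over the combined WNT and Notch list 12 of 37 tested were higher and 9 lower, and by library totals 8 and 14.

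Among cytokines, IL1A was at 1.37, 1.71 and 1.83 CPM against 5.75, 5.02 and 6.22 CPM (1.77, SE 0.2), and CXCL1 at 3.89, 4.28 and 4.23 CPM against 10.3, 9.03 and 10.4 CPM (1.25, SE 0.14). CXCL8, a neutrophil chemokine, was at 8.19, 9.22 and 7.71 CPM against 18.3, 18.3 and 14.5 CPM (1.01, SE 0.11), just past the DEG threshold, and fell below it without MII-Ctrl replicate 1 (0.99) or 3 (0.95) and without MII-TGFb replicate 1 or 2 (both 0.96). Of 22 tested cytokine genes, 9 were higher and 1 lower, against 6 and 5 by library totals, and 16 listed genes had too few counts to be tested. NF-kB targets and complement genes had 8 higher and 12 lower of 25, and TRIM31, a ubiquitin ligase at 709, 712 and 720 CPM against 268, 244 and 245 CPM, fell by 1.5 (SE 0.037).

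Genes of protein folding in the endoplasmic reticulum rose together by small amounts, 20 of 25 tested being higher, 1 lower and 0 DEGs, with a median of 0.49. PDIA4, a disulfide isomerase, was at 107.4, 108.2 and 107.9 CPM against 179, 195 and 191 CPM (0.80, SE 0.042), and HYOU1, a chaperone, at 89.2, 87.5 and 85.9 CPM against 142, 143 and 151 CPM (0.73, SE 0.044). HSPA5 (BiP), the main chaperone of this compartment, did not pass (-0.021), and DDIT3 (CHOP), a factor of prolonged stress, fell by 0.91 (SE 0.15). CHAC1 and ASNS, targets of ATF4, fell by 1.66 (SE 0.14) and 1.57 (SE 0.3), whereas the serine pathway enzymes PSAT1 (0.66) and PHGDH (0.44) rose.

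Hypoxia-responsive genes had 13 of 25 tested members higher and 6 lower, with 5 DEGs higher and 3 lower, and by library totals 10 were higher and 10 lower. CA9, a carbonic anhydrase, was at 0.137, 0.240 and 0.228 CPM against 1.89, 1.87 and 1.64 CPM, BNIP3 at 13.8, 12.2 and 11.7 CPM against 40.9, 39.5 and 46.0 CPM (1.76, SE 0.08) and STC1 at 52.1, 47.6 and 49.8 CPM against 132, 137 and 143 CPM (1.47, SE 0.05). ADM and EGLN3, induced by hypoxia as well, fell by 1.09 and 1.25, and VEGFA did not pass (-0.084). NRF2 targets, genes of the oxidative stress response, had 14 of 23 lower and 4 higher, with a median of -0.14, AKR1B10 falling from 49.2, 42.1 and 47.0 CPM to 22.2, 22.5 and 20.6 CPM.

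Among protein-coding genes that fell without belonging to these lists, the naming rule picked FABP4 and CYP24A1 besides others. FABP4, a fatty acid carrier, fell from 161, 149 and 162 CPM to 35.0, 34.0 and 34.7 CPM (-2.18, SE 0.052). CYP24A1, the enzyme that inactivates vitamin D, fell from 33.0, 31.8 and 33.8 CPM to 5.0, 4.82 and 4.38 CPM (-2.79, SE 0.1). The groups are well apart for both. Of 41 chromatin regulators, 12 were higher and 18 lower. UHRF1 (1.73) and HMGB2 (1.32), which are high in cycling cells, rose, and the polycomb gene CBX7 (-1.24), the demethylase KDM6B (-0.93) and the methyltransferases KMT2B (-0.88) and KMT2D (-0.81) fell.

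The DEGs that fell were mostly not protein-coding. Of the 1230, 365 were protein-coding, 590 lncRNAs, 169 pseudogenes, 54 of the class TEC (unconfirmed transcripts), 30 small RNAs and 22 of other or no class. Of the 511 that rose, 470 were protein-coding and 28 lncRNAs. Per class tested, 2.86% of protein-coding genes were DEGs lower and 3.68% DEGs higher, against 23.5% and 1.11% of lncRNAs and 22.7% and 1.34% of pseudogenes. The median log2 fold-change was 0.06 in protein-coding genes, -0.61 in lncRNAs, -0.53 in pseudogenes and -0.69 in TEC genes.

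DEGs that fell, most of them non-coding, had lower levels, a shorter exon length and fewer exons than those that rose or than all genes tested. Their median was 1.86 CPM in MII-Ctrl and 0.699 in MII-TGFb, against 2.52 and 8.34 CPM for DEGs that rose. Their median exon length was 2381 bases, against 4113 in DEGs that rose and 4654 in all genes tested, and 32.0% had a single exon, against 7.05% and 9.76%. The span of a protein-coding gene on the opposite strand overlapped that of 40.2% of them, against 18.4% and 31.9%, and strand was ignored in counting, so that such counts may hold reads of the partner. Among protein-coding genes, the DEGs that fell had a median exon length of 4726 bases and those that rose 4136, with a median of 10 and 11 exons and 7.95% and 5.74% with a single exon. Their median level in MII-Ctrl was 2.94 and 3.0 CPM. Such an overlap on the opposite strand was found for 26.8% and 17.2% of them, against 27.9% of all protein-coding genes tested. Among lncRNAs it was found for 54.6% of DEGs lower and 54.8% of all tested, so that within each class the DEGs that fell were near the share of all genes. Of 2176 protein-coding genes tested with a mean of 100 CPM or more, 32 were DEGs higher and 11 lower. Of 7102 from 10 to 100 CPM, 135 were DEGs higher and 74 lower. Of 2979 between 1 and 10 CPM the numbers were 266 and 194, and of 514 under 1 CPM 37 and 86.

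Abundant and well-known lncRNAs fell too. NEAT1, the scaffold of paraspeckles, went from 7939, 8225 and 8109 CPM to 3224, 3419 and 3146 CPM (-1.31, SE 0.033, edgeR adjusted p = 8.92e-37), and MALAT1, a nuclear speckle RNA, fell by 0.78 (SE 0.033). LINC00342 fell from 442, 451 and 434 CPM to 169, 175 and 160 CPM. Over 31 tested lncRNAs of the list, 20 were lower and 3 higher, with a median of -0.51. Small nucleolar RNA host genes, whose introns carry such RNAs, had 16 of 25 tested lower and 1 higher, SNHG5 falling from 49.0, 46.8 and 52.0 CPM to 13.5, 12.8 and 14 CPM (-1.87, SE 0.075) and SNHG12 from 96.0, 95.2 and 98.3 CPM to 33.5, 32.7 and 32.6 CPM (-1.55, SE 0.056). MIR100HG rose by 1.10 (SE 0.2). LINC03070 had 0 counts in the 3 MII-Ctrl libraries and was at 1.35, 1.14 and 0.752 CPM in MII-TGFb.

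Measures of library composition moved with the groups. The share of counts on lncRNAs was 3.08% to 3.18% in MII-Ctrl and 1.67% to 1.76% in MII-TGFb, and that on pseudogenes 0.507% to 0.514% and 0.333% to 0.338%. The share on small RNAs went the other way, from 3.73% to 4.21% in MII-Ctrl to 6.31% to 6.95% in MII-TGFb. Most of it lay on RN7SL1, the RNA of the signal recognition particle, at 36348, 31926 and 36343 CPM against 69524, 62435 and 69113 CPM, a gene named after its values were seen. Thinned to 14124688 counts each, MII-Ctrl libraries held 28911 to 29530 detected genes and MII-TGFb libraries 26206 to 26446. Olfactory receptor genes, which breast cells are not known to use, summed to 6.63 to 7.43 CPM in MII-Ctrl and 4.11 to 5.86 CPM in MII-TGFb, and mitochondrial transcripts took 1.41% to 1.66% and 1.02% to 1.18% of counts. The part of these measures in the fall of non-coding genes was not tested.

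**Figure D3:**
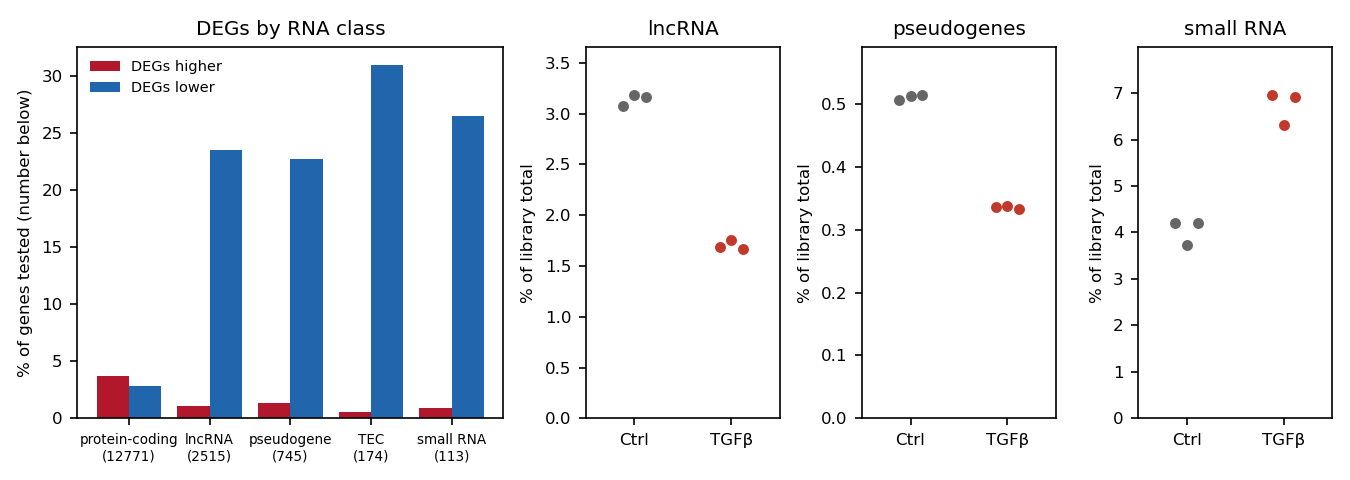
Left, the percentage of genes tested in each RNA class (number tested in brackets) that were DEGs higher (red) or lower (blue) in MII-spheres. The 3 panels to the right show the percentage of each library's counts on lncRNAs, pseudogenes and small RNAs in the 3 Ctrl (grey) and 3 TGFβ (red) MII libraries, on axes from 0, and the groups do not overlap in any of them.

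The response was set beside that of MI-spheres, given the same TGFβ treatment, to find where MII-spheres differed. The difference between the lines in their response (the interaction) was tested in 1 fit of 12 libraries. The CPM of genes, in contrast, were scaled within each line. Levels of MII and MI are therefore not on 1 common scale, and small differences between them are not read. MI-TGFb replicate 2 stood apart, with 36371 genes detected against 27862 and 29871 in the other libraries of its group and 13.2 CPM on olfactory receptors against 4.12 and 4.17. The interaction passed the adjusted p for 4156 of 18591 genes (22.4%), 2344 with MII above MI (12.6%) and 1812 below (9.75%). Without that library the numbers were 2063 and 2378, so that more genes lay below than above. In MI-spheres alone, 56.0% of 16863 genes tested passed the adjusted p, and 3.64% were DEGs higher and 9.92% DEGs lower. Among the 1741 MII DEGs it passed for 532 (30.6%). Of 456 MII DEGs higher that were tested in both lines, 247 were also higher past the adjusted p in MI-spheres and 40 were lower, and of 1011 MII DEGs lower 670 were also lower and 8 higher. The members were chosen on the MII values, so that their medians of 1.51 in MII and 0.39 in MI, and of -1.30 and -1.0, are a description.

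Among matrix genes, MMP10 had a log2 fold-change of 5.11 in MII and 0.027 in MI (interaction adjusted p = 2.67e-17, edgeR), and MMP1 of 4.21 and -0.37 (2.83e-10). MMP10 was at 8.13 CPM in MII-TGFb (SD 0.521, n = 3 libraries). COL4A1 and COL4A2 rose in both lines, with differences of 2.15 and 2.62. With TGFβ, COL4A1 was at 34.3 CPM in MII and 36.1 in MI, and COL4A2 at 45.4 and 42.9 CPM. HAS2 rose in both lines as well, with a difference of 2.75, and LAMA3 by 1.39 in MII and 0.52 in MI. FN1 went the other way, with 0.093 in MII and 2.16 in MI (interaction adjusted p = 2.31e-22, edgeR), and so did VCAN with 1.91 and 3.37. The interaction did not pass for MMP2, VIM, CDH2, SNAI1 or LAMA5.

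In differentiation, KRT5 (3.38 and 2.39), KRT17 (1.88 and 0.87), S100A2 (2.52 and 1.29) and TP63 (2.11 and 0.69) had the larger log2 fold-change in MII, each past the interaction. Their mean CPM was lower in MII than in MI, both without and with TGFβ, as was that of KRT6A. KRT6B and KRT16, also with the larger change in MII past the interaction, stood higher in MII. With TGFβ they were at 697.5 and 373.39 CPM in MII and at 30.6 and 146.95 CPM in MI. KRT14, which did not pass the interaction, stood higher in MII as well. In MII-TGFb, S100A2 (347.94 CPM) and TP63 (2.66 CPM) stayed below unstimulated MI-spheres (596.85 and 48.9 CPM). KRT17 came near that level (1244 against 1223 CPM), and KRT5 passed it (201.6 against 101.76 CPM). AGR2 rose in MII and fell in MI (-0.87), and FABP4 fell in MII and rose in MI (0.74). DSC2 rose less in MII (1.08) than in MI (2.03). LCN2 differed through MI, where it fell by 3.99.

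In signalling, FOS (-1.61 and -0.58), EGR1 (-2.66 and -1.81) and JUN (-1.02 and -0.30) fell more in MII, each past the interaction, and GADD45B, DUSP1 and FOSB did so as well. Of 17 immediate-early genes past the interaction, 12 had the lower value in MII and 5 the higher one, namely KLF4 (-0.70 and -2.0), PPP1R15A, ATF3, KLF2 and NR4A2, and the medians over the 28 genes were -0.75 in MII and -0.73 in MI. GDF15 fell in both, by 0.62 in MII and 3.46 in MI, and CXCL8 rose in MII and fell by 1.83 in MI. PMEPA1 (0.24 and 1.44), SKIL (0.081 and 0.60) and DUSP6 (0.25 and 1.48) changed less in MII. SMAD7, SNAI2 and SOX4 did not pass in the interaction. The fall of lncRNAs was seen in both lines, with medians of -0.61 and -0.54.

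**Figure D4:**
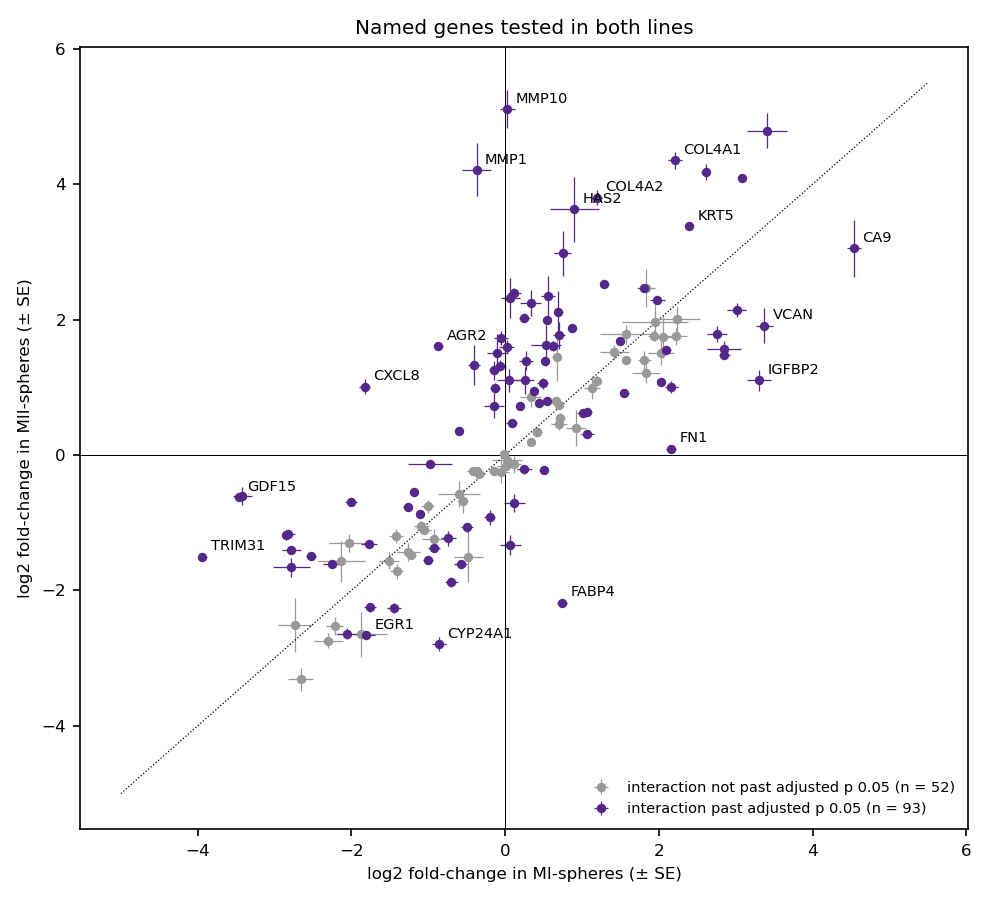
Log2 fold-change in MI-spheres (horizontal) and MII-spheres (vertical), each with its SE, for the 145 named genes tested in both lines. The interaction passed the adjusted p for 93 of them (purple) and not for 52 (grey). Most of these genes were picked on their MII values, which also enter the interaction test and favour larger changes in MII. The share past the interaction is therefore a description, and among all 18591 genes tested for it that share was 22.4%. The dotted line marks equal change. MMP10 and MMP1 lie far above the line near 0 in MI, and FN1 lies below it near 0 in MII.

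Motifs were counted in RefSeq promoters, 250 bases before to 50 after the start site, on both strands, in 376 of the 470 protein-coding DEGs higher, 275 of the 365 lower and 10423 of the 12770 protein-coding gene symbols tested. KRT6A, SNAI1 and MMP1 were not among them. The SMAD string CAGACA was in 16.0% of promoters of DEGs higher, 11.6% of DEGs lower and 12.7% of all, and the GC-rich string GGCGCG in 43.9%, 37.8% and 45.5%. The AP-1 motif TGANTCA was in 9.84%, 6.91% and 4.98%, and the SOX string AACAAAG in 6.12%, 1.82% and 3.61%. E2F (GGCGGGA) was in 25.0%, 21.1% and 24.2%, and the E-box CANNTG in 65.7%, 66.9% and 61.1%. None of these strings contains another. The CArG box was in 1.33%, 1.45% and 1.13%, and in 3 of 22 immediate-early promoters (13.6%). These shares are descriptions, and no factor's binding was measured in them.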

How the data were processed

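RNA-seq counts of 6 MII-sphere libraries, and of 6 MI-sphere libraries for the interaction, were used. Per the file headers and the paper's methods, the authors trimmed paired-end reads of rRNA-depleted total RNA with Trimmomatic, aligned them to GRCh38.p13 with STAR and counted fragments over GENCODE v38 exons with featureCounts 2.0.0, with both ends mapped and a mapping quality of at least 30, ignoring strand. The deposited values are raw counts per gene, without normalization. Symbols came from GENCODE v44, which matched 60463 of 60708 genes (99.6%).

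Counts were filtered with filterByExpr, scaled by TMM and tested with edgeR 4.0.16 (R 4.3.3), by its quasi-likelihood test, and p-values were adjusted by Benjamini-Hochberg over every tested gene. DESeq2 1.42.0 was an alternative. With 3 libraries a group, exact permutation p-values have a minimum of 0.1. Replicates correlated at r of 0.994 to 0.996 across genes, and their chi-square per gene of 1.89 to 3.78 exceeded sampling noise. On simulated counts for the MII comparison (16396 genes), 91 of 100 genes changed by a log2 fold-change of 1 and 97 of 100 changed by 2 were recovered, and for the interaction (18591 genes) 80 of 120 and 69 of 80.

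The libraries and the 36 gene lists were chosen with earlier results of these data known. Gene families, the immediate-early list and the CArG box were added after values were seen. Named were the 5 protein-coding DEGs per direction with the smallest adjusted p and the 5 with the largest fold-change at 5 CPM or more, up to 6 DEGs (otherwise genes past the adjusted p) of each list at 1 CPM or more, the 5 leading lncRNAs per direction, HRAS, SOX4 and the genes of the study's primers. Not all of these are described in the text, some genes are not reported here, and other list and family members were named after their values were seen. Exons of TNC, COL4A2, LAMA5, MMP1, HAS2, IGFBP5, VCAN, VIM, CDH2, FAP, ITGA5, PGR, P4HA1, PTHLH, JAG1, SMAD3, TRIM31, FLNA, KRT8, KRT18, CDH1 and NR4A1, among others, overlap a gene on the opposite strand, so that their counts are uncertain. Alternatives were DESeq2, its size factors in edgeR, library totals, other count filters, a gene-length trend, a replicate block, all 12 sphere libraries in 1 fit, and leaving out each library. ATAC-seq and MDA-MB-231 samples were not used here.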

Additional observations from a re-analysis of the deposited data

Results flagged for a closer look

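For 17 of the genes picked by the naming rule, at 1 CPM or more, the TGFβ response of MII-spheres differed from that of MI-spheres. Each passed the adjusted p of the edgeR interaction test. The rule picked most genes on their MII values, which also enter this test and favour larger changes in MII, so that the set is a description. The responses differed by more than 2 in log2 fold-change, or by more than 1 with called changes in opposite directions. List and family members named outside that rule, such as LCN2, which differed through MI, are not in this set. All 17 kept the sign and the call without MI-TGFb replicate 2, the library that stood apart. Groups of 3 libraries were too small to be searched for single outlying values.

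Matrix genes make up 6 of the 17, written as the difference of the log2 fold-changes, MII minus MI. MMP10 differed by 5.10, MMP1 by 4.6, HAS2 by 2.75, COL4A2 by 2.62 and COL4A1 by 2.15, all with the larger rise in MII. For each of these genes the mean CPM without TGFβ was lower in MII than in MI. FN1 differed by -2.06, since it rose in MI and did not pass in MII.

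Genes of secretion, differentiation and metabolism follow. AGR2 differed by 2.48 and SPRR1B, a cornified envelope precursor that rose in MII and fell by 0.41 in MI, by 1.77. Without TGFβ, AGR2 was at a mean of 46.4 CPM in MII and 181.83 in MI, and with it at 140.59 and 99.6 CPM. FABP4 differed by -2.91. For IGFBP2, a carrier of insulin-like growth factors, the rise was 1.10 in MII and 3.30 in MI, a difference of -2.19.

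Some genes fell more in MI than in MII. These were GDF15 (difference 2.85), the endothelial cadherin CDH5 (2.81, with -0.61 in MII and -3.42 in MI) and TRIM31 (2.45, with -1.50 and -3.94). CXCL8 differed by 2.84, rising in MII and falling in MI. Its mean was 8.38 CPM in MII and 126.74 in MI without TGFβ, and 17.0 and 35.6 CPM with it.

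Genes that serve cell division or have no known role complete the set. CDK1, the mitotic kinase, differed by 2.28 and the formin DIAPH3 by 2.26. The lncRNA ENSG00000273760, at 0.273, 0.343 and 0.457 CPM in MII-Ctrl and 2.91, 2.94 and 2.80 CPM in MII-TGFb, differed by 2.25. Without TGFβ the mean CPM of each was lower in MII than in MI. With TGFβ, DIAPH3 (3.27 CPM) and the lncRNA (2.88 CPM) in MII stayed below MI (6.66 and 13.7 CPM), and CDK1 did not (55.8 against 45.6 CPM).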

How the results depend on the processing

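The number of DEGs that fell depended on which genes were tested. DEGs lower numbered 1230, but 565 with at least 10 counts in every library and, in a setting chosen after seeing the data, 345 among protein-coding genes with a mean of at least 1 CPM. DEGs higher numbered 382 and 380 there, so that the excess of DEGs that fell over those that rose ended in the second, which changed RNA class and level together. Protein-coding DEGs numbered 365 lower and 470 higher with no such minimum. Fewer genes were tested in both. Scaling by library totals left 3193 genes higher past the adjusted p, against 4906. DESeq2 gave 547 DEGs higher and 1013 lower. Leaving out 1 library at a time gave 529 to 563 DEGs higher and 1261 to 1436 lower.

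Libraries with the same replicate number were not paired, since their deviations from the group means correlated at 0.00135, -0.0431 and -0.0326. With a replicate block, 514 DEGs were higher and 1222 lower. Of 152 named genes, 146 passed the adjusted p, and 139 of the 152 kept their call in all 15 alternatives, while 2213 of 2242 values over genes and settings kept direction and side of the threshold. FLNA turned from 1.45 to -0.45, and its interaction to -1.17, without MII-TGFb replicate 3, against up to 1.97 and 1.27 without replicate 1 of that group. With a gene-length trend removed, MT-ND4L turned to 0.24 and MT-ND3 to 0.23, and by library totals SOX4 turned to -0.12, a called fall. The cause was not tested for these. NRG2 lost its call without MII-TGFb replicate 2, PECAM1 without MII-TGFb replicate 1 and MT-ND3 without MII-Ctrl replicate 2 or MII-TGFb replicate 1.

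Simulated interactions of a log2 difference of 1 were recovered in 66.7% of genes. Of 18591 genes, 120 were changed by 1 and 80 by 2 in that simulation, and no smaller difference was simulated. In the data 22.4% of genes passed the interaction, so that the simulation does not tell how often smaller differences between the lines were missed.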

Other observations

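Interferon-stimulated and antigen presentation genes rose in number more than they fell, 21 of 44 tested being higher and 9 lower past the adjusted p, with 0 DEGs higher and a median of 0.25 (0.12 by library totals). OAS3, an antiviral enzyme, rose by 0.95 and BST2 by 0.83, while the regulators IRF7, at 34.5, 38.5 and 37.1 CPM in MII-Ctrl and 17.2, 17.3 and 19 CPM in MII-TGFb, and IRF9 fell by 1.05 and 0.90. Genes for surface proteins used to mark stem and progenitor cells had 11 of 14 tested members higher and 3 lower, with CD24 at 0.78, CD36 at 0.58 and CD44 at 0.45.

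CGB8, a gene for the beta subunit of chorionic gonadotropin, was at 0.137, 0.377 and 0.286 CPM in MII-Ctrl and 8.31, 8.23 and 8.28 CPM in MII-TGFb (log2 fold-change 4.79, SE 0.26), and it rose in MI-spheres by 3.40. CGB5 had 1 count in the MII-Ctrl libraries together and was at 3.58, 2.81 and 2.53 CPM in MII-TGFb. These genes are near-identical copies, and how reads divide among them is uncertain. YAP and TEAD targets had 9 of 23 tested members higher and 6 lower, with a median of 0.00, and 5 and 12 by library totals. Integrins had 7 of 14 tested higher and 2 lower, against 5 and 5 by library totals. Of 13 mitochondrially encoded genes 9 were lower and 1, MT-ND6, was higher, and with a gene-length trend removed 2 were lower and 7 higher.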
